A study of Homo sapiens with 6 samples.

Results

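This account covers 10 genes of bone morphogenetic protein (BMP) signalling in human embryonic stem cells, taken by their symbols from a table of 53712 gene rows. They are the ligand genes BMP2, BMP4 and BMP7, the inhibitor genes NOG, BAMBI and SMAD6, and the target genes ID1, ID2, ID3 and ID4. All 10 were in the table and all 10 passed the filter on low counts, as did 16873 genes in all. RNA was measured by poly(A) RNA-seq in H9, an established human embryonic stem cell line, held in PXGL medium and called naive in the labels. One group, ASO-L1, received an antisense oligonucleotide against LINE-1, a retrotransposon, and the other, SO-L1, received the sense oligonucleotide. Each group had 3 libraries. Both groups got 25 nM of oligonucleotide with a lipid reagent, and both got 0.7 uM trans-ISRIB, 5 uM emricasan and 10 uM of the ROCK inhibitor Y-27632, which were taken off after 24 hours. Unsorted cells were collected at 48 hours. All libraries come from the one cell line and no untransfected group was analysed here. Nothing in the labels says that replicates were separate cultures, so p-values measure the spread between these libraries, which may be technical. In unsorted bulk RNA, fewer cells of a type and less RNA per cell cannot be told apart.

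BMPs are secreted dimers that bring together type I and type II serine/threonine kinase receptors, and the type I receptor then phosphorylates SMAD1, SMAD5 and SMAD9, which enter the nucleus with SMAD4. The ID genes are classic direct targets. Their products are helix-loop-helix proteins with no DNA-binding region, and they bind E proteins and keep them off DNA. In human pluripotent cells added BMP4 is widely used to drive trophoblast-like, amnion-like and mesoderm fates.

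Library totals ran from 23330875 to 31164287 counts in ASO-L1 and from 24027869 to 30956692 in SO-L1. The 5 core pluripotency markers summed to 2993 to 3444 CPM (counts scaled to a common library size, with TMM factors) in ASO-L1 and to 3435 to 3755 CPM in SO-L1, with POU5F1 at 1136 CPM on average in ASO-L1 and 1265 CPM in SO-L1. Naive markers were uneven. KLF4 and TFCP2L1 rose, with 74.0 and 50.9 CPM on average in ASO-L1 against 44.9 and 36.6 CPM in SO-L1, and DNMT3L, DPPA3 and SUSD2 fell, DNMT3L to 57.5 CPM in ASO-L1 against 79.9 CPM in SO-L1. DPPA5 averaged 17.0 CPM in ASO-L1 and 34.2 CPM in SO-L1. It was not called (adjusted p = 0.107), but was with the replicate number as a block (3.21e-07). KLF17 was low in all libraries and not called (adjusted p = 0.103), with 6 to 17 reads per ASO-L1 library and 17 to 23 per SO-L1 library, and an average of 0.396 CPM in ASO-L1 and 0.743 CPM in SO-L1. The primed marker SFRP2 stood at 39.6 CPM in ASO-L1 and 24.6 CPM in SO-L1.

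Of the 10 genes, 4 rose in ASO-L1 cells (BMP2, NOG, ID2 and ID3) and 2 fell (BMP4 and BMP7), at an adjusted p under 0.05 by the quasi-likelihood test of edgeR with Benjamini-Hochberg adjustment over all tested genes. Across all tested genes the same test called 33.7%, with 18.0% higher and 15.7% lower. BAMBI, SMAD6, ID1 and ID4 did not pass. With SO-L1 replicate 3 left out, 3 of the 10 were called and the calls over all genes numbered 2975, against 5684 with all libraries. For 8 of the 10 no ASO-L1 library lay within the SO-L1 range, with 5 higher and 3 lower in ASO-L1, while 50.9% of all tested genes were without overlap, 25.8% higher and 25.1% lower. The median log2 fold change of the 10 was 0.30, against -0.01 for all tested genes.

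**Figure D1:**
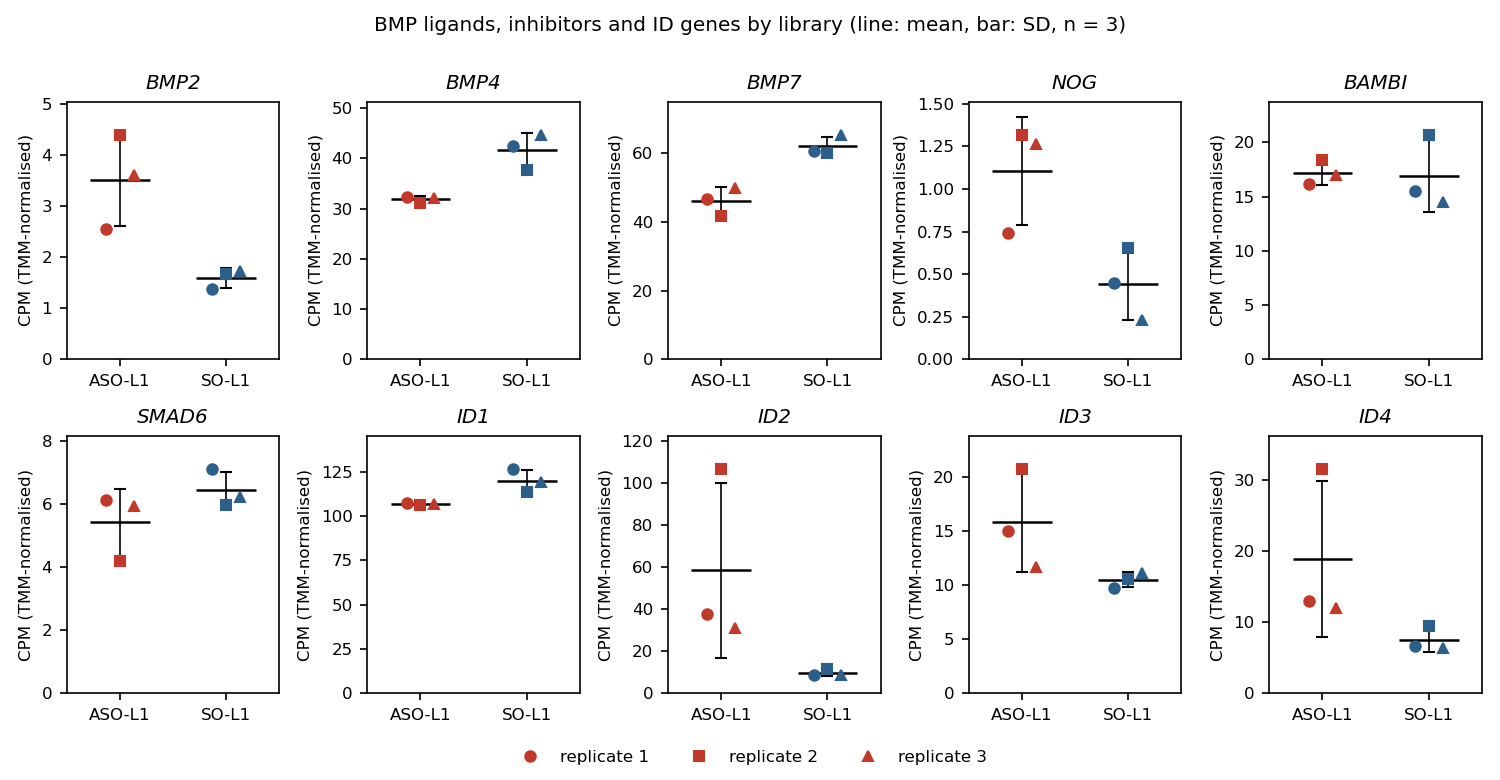
TMM-normalised CPM of each gene in the 3 ASO-L1 libraries (red, left) and the 3 SO-L1 libraries (blue, right); symbols mark the replicate number, lines the mean and bars the SD. ID2, with 31.1 to 106.6 CPM in ASO-L1 and 8.78 to 11.8 CPM in SO-L1, shows the widest gap, while the BAMBI and SMAD6 points overlap between groups.

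The upstream DNA of these genes was searched for letters bound by SMADs, and 4 stretches are shown as examples: ID1 and ID4, whose levels moved differently, BMP4 among the ligands, and the SMAD6 site. Sequences are from RefSeq (GRCh38.p14), which matched 7 of the 10 genes in 9 windows of 250 bases before an annotated start. Capitals mark GGCGCC (a GC-rich element of SMAD1 and SMAD5), CAGAC or its reverse complement GTCTG (the SMAD box), or GTCTAGAC (a palindromic SMAD site). Both strands were searched, and stretches that GENCODE v29 places in an exon of the gene were left off, apart from the SMAD6 site.
ID1, chr20:31605039-31605282, plus strand: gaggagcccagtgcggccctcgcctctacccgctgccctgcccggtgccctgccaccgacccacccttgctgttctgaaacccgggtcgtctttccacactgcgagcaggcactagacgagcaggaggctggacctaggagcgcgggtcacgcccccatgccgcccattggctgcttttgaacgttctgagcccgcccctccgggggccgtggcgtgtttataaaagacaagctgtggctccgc
ID4, chr6:19837120-19837369, plus strand: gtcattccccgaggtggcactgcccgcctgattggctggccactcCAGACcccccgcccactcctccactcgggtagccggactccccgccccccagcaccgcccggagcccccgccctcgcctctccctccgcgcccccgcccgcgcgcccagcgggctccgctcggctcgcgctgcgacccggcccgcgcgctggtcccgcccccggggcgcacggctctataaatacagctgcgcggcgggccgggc
BMP4, chr14:53955051-53955300, minus strand: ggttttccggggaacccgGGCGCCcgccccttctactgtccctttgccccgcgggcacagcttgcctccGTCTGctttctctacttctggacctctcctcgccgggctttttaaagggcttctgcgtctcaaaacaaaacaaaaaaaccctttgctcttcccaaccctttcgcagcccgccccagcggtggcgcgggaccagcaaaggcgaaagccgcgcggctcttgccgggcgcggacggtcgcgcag
SMAD6, chr15:66702206-66702235, plus strand: ccgcggagccgccaaagtGTCTAGACtggc

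GTCTAGAC lay 12 bases before the SMAD6 start and in none of the other windows of these genes, and 0.182% of all 35116 RefSeq windows of this length hold it. GGCGCC occurred 3 times before BAMBI and once in the BMP4 window shown, against 16.4% of all windows with at least 1. CAGAC or GTCTG was found in the windows of ID3, ID4 and BAMBI and in 2 of the 3 BMP4 windows, against 38.0% of all windows. The whole ID3 window, and part of those of ID1, ID2, BAMBI and SMAD6 and of the other two BMP4 windows, lies in exons of the same gene in GENCODE v29. No overlap between motifs occurred within these windows. The ID1 and ID2 windows held none of these 3 motifs. In the ID2 window only 48 bases lay before its first exon, and 202 lay in its exons. DNA further upstream was not searched for any of these genes, so SMAD sites there were not tested. The E-box CANNTG, which E proteins bind, occurred once each before ID2 and ID4 and in a further BMP4 window, and 61.8% of all windows hold one. The cyclic AMP element TGACGTCA (1.65% of all windows) and the EGR motif GCGTGGGCG (0.72%) were in none of the 9 windows. These are letter matches only.

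Among the ligands, BMP2 went the other way from BMP4 and BMP7. BMP2, a ligand made by primitive endoderm in the human blastocyst, had 2.56, 4.39 and 3.603 CPM in ASO-L1 replicates 1 to 3, against 1.38, 1.67 and 1.73 CPM in SO-L1. Every ASO-L1 library lay above every SO-L1 library. The log2 fold change was 1.14 ± 0.23 (SE, adjusted p = 0.00508), from 41 to 111 reads per library. BMP2 stayed called in all 15 alternatives, with adjusted p up to 0.0433. These include dropping each library, and dropping each pair, meaning the libraries of one replicate number in both groups.

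BMP4, the ligand most used to differentiate pluripotent cells, had 32.2, 31.2 and 32.2 CPM in ASO-L1 and 42.5, 37.8 and 44.6 CPM in SO-L1. All ASO-L1 libraries were lower and nearly equal. The fitted change was -0.39 ± 0.083 on the log2 scale (adjusted p = 0.00698). BMP7, a ligand that can pair with BMP2 or BMP4, had 46.6, 41.6 and 49.8 CPM in ASO-L1 and 60.8, 60.1 and 65.2 CPM in SO-L1, again with no overlap (-0.43 ± 0.083, adjusted p = 0.00446). On dropping pair 1 neither was called (adjusted p = 0.109 for BMP4 and 0.0703 for BMP7), and on dropping pair 3 BMP4 was not called (0.0924). BMP2 reads made up 3.14%, 5.68% and 4.21% of the reads of the 3 ligands in ASO-L1, against 1.32%, 1.68% and 1.55% in SO-L1. BMP2 was thus a small part of the ligand reads in every library.

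The inhibitors act at separate steps, and one of the 3 rose. NOG encodes noggin, which binds BMPs outside the cell. It had 0.743, 1.32 and 1.27 CPM in ASO-L1 and 0.448, 0.651 and 0.228 CPM in SO-L1, from 18, 30 and 39 reads in ASO-L1 and 14, 16 and 7 reads in SO-L1. The libraries did not overlap, but the lowest ASO-L1 value lay close to the highest SO-L1 value. On the log2 scale NOG was up by 1.35 ± 0.40 (adjusted p = 0.0241). Its call was lost on dropping replicate 3 of ASO-L1 (adjusted p = 0.0636), SO-L1 replicate 1 (0.0836) or SO-L1 replicate 3 (0.0942), and on dropping pair 1 (0.0819) or pair 3 (0.186).

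BAMBI encodes a pseudoreceptor that lacks the kinase domain and is itself a BMP target. It had 16.2, 18.4 and 17.0 CPM in ASO-L1 and 15.5, 20.7 and 14.5 CPM in SO-L1, and the groups overlapped. Its log2 fold change was 0.028 ± 0.13 (adjusted p = 0.889), with a 95% interval from -0.27 to 0.32. SMAD6 encodes an inhibitory SMAD that is likewise induced by BMP signalling. It had 6.15, 4.21 and 5.94 CPM in ASO-L1 and 7.11, 5.98 and 6.23 CPM in SO-L1, with overlap, and a log2 fold change of -0.24 ± 0.16 (adjusted p = 0.275, 95% interval from -0.60 to 0.12). The intervals, which are not adjusted for the number of genes, leave out a rise of either gene as large as that of BMP2.

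The 4 ID genes did not move alike. ID2 had 38.0, 106.6 and 31.1 CPM in ASO-L1, against 8.99, 11.8 and 8.78 CPM in SO-L1. All ASO-L1 libraries were above all SO-L1 libraries, and ASO-L1 replicate 2 was far above the other two. The log2 fold change was 2.57 ± 0.57 (adjusted p = 0.0241), and 0.409% of tested genes had a larger one. On dropping ASO-L1 replicate 2 it was 1.81 (adjusted p = 5.93e-06). The call was lost on dropping SO-L1 replicate 3 (0.0653), on dropping pair 3 (0.118) and with no filter (0.0772), at log2 fold changes of 2.49, 2.80 and 2.56.

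ID4 had 13.04, 31.4 and 11.98 CPM in ASO-L1 and 6.66, 9.48 and 6.36 CPM in SO-L1. The groups did not overlap, and ASO-L1 replicate 2 was again the highest. Its log2 fold change of 1.33 ± 0.42 missed the threshold (adjusted p = 0.0561). With the replicate number as a block it was called (1.23 ± 0.135, adjusted p = 2.56e-06), and on dropping ASO-L1 replicate 2 it was called at 0.75 (adjusted p = 0.0037). Calls were also made on dropping ASO-L1 replicate 3 (0.0401) or SO-L1 replicate 2 (0.0415), on dropping pair 2 (1.92e-08), with a CPM above 1 in 3 libraries (0.0426), by DESeq2 (0.025) and by limma-voom (0.0263).

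ID3 had 14.9, 20.7 and 11.7 CPM in ASO-L1 and 9.76, 10.6 and 11.1 CPM in SO-L1. ASO-L1 replicate 3 lay just above the highest SO-L1 library. The log2 fold change was 0.58 ± 0.18 (adjusted p = 0.0353), and within replicate numbers the log2 difference was 0.61, 0.96 and 0.07 for numbers 1 to 3. Leaving out a single library ended the call in every case but ASO-L1 replicate 3, with adjusted p of 0.0552 and 0.0586 on dropping ASO-L1 replicates 1 and 2, and of 0.125, 0.0738 and 0.0792 on dropping SO-L1 replicates 1, 2 and 3. The value was 0.34 on dropping ASO-L1 replicate 2. It was also lost on dropping pair 1 (0.178) and by limma-voom (0.0523).

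ID1 had 107.0, 106.3 and 106.8 CPM in ASO-L1 and 126.2, 113.3 and 118.9 CPM in SO-L1. All ASO-L1 libraries were lower and nearly equal. Its log2 fold change of -0.16 ± 0.063 was not called (adjusted p = 0.0701). It was called with the replicate block (adjusted p = 0.0369), on dropping SO-L1 replicate 2 (0.0475) and on dropping pair 2 (0.00214), always lower in ASO-L1. The 95% interval, from -0.30 to -0.02, holds no rise.

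Within the ID family, ID2 held a larger share of the reads in every ASO-L1 library than in any SO-L1 library, and ID1 a smaller one. ID2 took 21.95%, 40.23% and 19.24% of the reads of the 4 genes in ASO-L1 replicates 1 to 3, against 5.93%, 8.13% and 6.04% in SO-L1. The exact (Clopper-Pearson) 95% intervals, which cover counting error only, ran from 18.15% to 41.48% over the ASO-L1 libraries and from 5.28% to 9.08% over the SO-L1 libraries. ID1 took 61.87%, 40.11% and 66.11% in ASO-L1 and 83.24%, 78.05% and 81.91% in SO-L1. The summed level of the 4 genes was 173.0, 265.0 and 161.5 CPM in ASO-L1 and 151.6, 145.1 and 145.2 CPM in SO-L1. In ASO-L1 replicate 2, ID1 and ID2 reads were nearly equal in number, at 2424 and 2431.

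**Figure D2:**
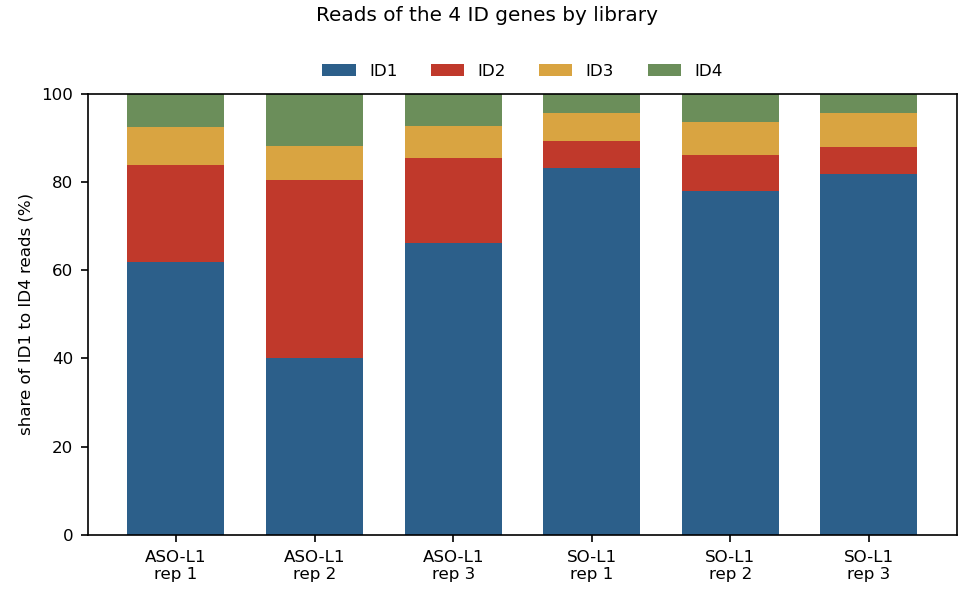
Share of ID1, ID2, ID3 and ID4 reads among all reads of the 4 genes (percent, y axis) in each ASO-L1 library (left) and SO-L1 library (right). The ID2 share is 19.24% or more in each ASO-L1 library and 8.13% or less in each SO-L1 library.

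Levels can be compared between genes only per length, here as CPM per kilobase of the exons that GENCODE v29 lists, which may not be the annotation the authors counted with. In ASO-L1 cells the order was ID1 (86.5 ± 0.292, SD, n = 3), ID2 (26.6 ± 18.9), BMP4 (10.3 ± 0.184), ID3 (8.77 ± 2.53), BMP7 (8.49 ± 0.763), ID4 (8.03 ± 4.67), BAMBI (7.43 ± 0.491), BMP2 (0.976 ± 0.254), SMAD6 (0.635 ± 0.124) and NOG (0.586 ± 0.168). In that group the library ranges overlap for neighbours from BMP4 to BAMBI, for BMP2 and SMAD6, and for SMAD6 and NOG. In SO-L1 cells the order was ID1 (96.9 ± 5.25), BMP4 (13.5 ± 1.14), BMP7 (11.4 ± 0.512), BAMBI (7.30 ± 1.43), ID3 (5.84 ± 0.383), ID2 (4.47 ± 0.765), ID4 (3.20 ± 0.735), SMAD6 (0.752 ± 0.0689), BMP2 (0.442 ± 0.0524) and NOG (0.234 ± 0.112). There the ranges overlap for ID2 and ID4 and for no other neighbours. ID1 had the highest level of the 10 in both groups, and ID2 stood second in ASO-L1 and sixth in SO-L1. In GENCODE v29 the exons of ID2 share 38 bases with those of ID2-AS1 on the other strand, and no other gene shares exon bases with any of the 10.

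Taking the replicate numbers as pairs raised the number of called genes among the 10 to 8, with 5 higher and 3 lower, while the share over all tested genes became 45.7% (23.3% higher and 22.5% lower). The added calls were those of ID4 and ID1 given above. Within each replicate number the ASO-L1 library was above its SO-L1 partner for BMP2, NOG, ID2, ID3 and ID4 and below it for BMP4, BMP7, SMAD6 and ID1. BAMBI differed in sign, at 0.06, -0.17 and 0.22 on the log2 scale for numbers 1 to 3. Of the 10 genes, 6 had in the authors' deposited table an adjusted p under 0.05, against 21.4% of its 20964 genes. The authors' deposited table has ID4 (log2 fold change 1.18, adjusted p = 0.0291) past the threshold and ID3 (0.52, adjusted p = 0.0677) short of it, and its sign was the same as here for each of the 10.

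**Figure D3:**
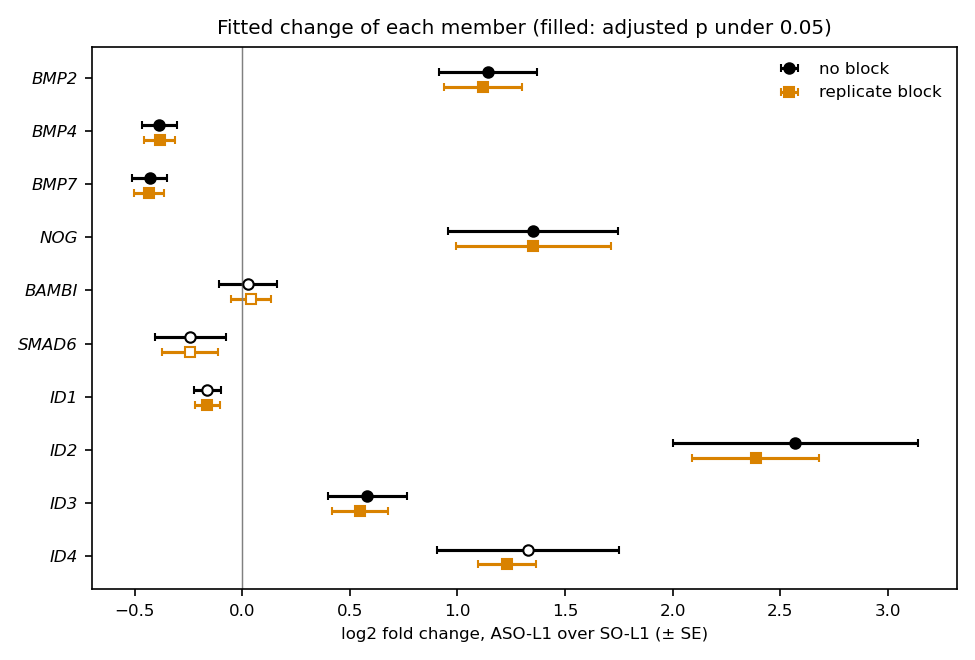
Log2 fold change of ASO-L1 over SO-L1 (x axis) with its SE for each gene, without (black circles) and with (orange squares) the replicate number as a block; filled symbols have an adjusted p under 0.05. The fit with the block narrows the bars of ID2 and ID4 most, and ID4 and ID1 are filled in that fit alone.

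The rest of the pathway was followed in 55 further genes grouped by role, of which 45 were tested. In them 13 rose and 5 fell, and the median log2 fold change was 0.16. These 18 calls of 45 stand beside 33.7% of all tested genes, 18.0% higher and 15.7% lower, which is also the background for the counts by role that follow. With the replicate block the counts were 16 and 9, beside 45.7% of all tested genes. Their calls numbered 8 on dropping SO-L1 replicate 3, 5 and 9 on dropping pair 1 and pair 3, and 13 to 20 without any other single library.

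Other reported BMP target genes included ATOH8, with the largest change of the 45 tested. Of 5 tested, 4 rose and none fell, with a median of 2.39. ATOH8, a helix-loop-helix factor gene, had 2.48, 3.51 and 1.79 CPM in ASO-L1, against 0.320, 0.407 and 0.228 CPM in SO-L1 (3.01 ± 0.35, adjusted p = 0.00123). These came from 60, 80 and 55 reads in ASO-L1 and only 10, 10 and 7 in SO-L1. HEY1, a repressor gene that Notch also induces, had 9.33, 16.8 and 8.90 CPM in ASO-L1, against 1.73, 3.34 and 0.881 CPM in SO-L1 (2.59 ± 0.46, adjusted p = 0.00763). For both genes the groups were far apart, with ASO-L1 replicate 2 the highest of all 6 libraries. The homeobox gene MSX2 (2.08 ± 0.51, adjusted p = 0.0241) and the T-box gene TBX3 (2.39 ± 0.66, adjusted p = 0.0430) followed, TBX3 being named after its values were seen. On dropping ASO-L1 replicate 2 the log2 fold change was 1.43 for MSX2 and 1.69 for TBX3, both still called. MSX2 was lost on dropping SO-L1 replicate 3 (0.0776), on dropping pair 1 (0.0532) or pair 3 (0.0725) and with no filter (0.122). HEY1 was also lost with no filter (0.0515). TBX3 was lost on dropping replicate 1 (0.0622) or 3 (0.0583) of ASO-L1 or replicate 3 of SO-L1 (0.106), on dropping pair 1 (0.0557) or pair 3 (0.168) and with no filter (0.138). MSX1 (1.04 ± 0.54) did not pass (adjusted p = 0.169) and was called with the block (0.00339).

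Extracellular inhibitors other than NOG had 5 of 12 higher and none lower, with a median of 0.37. With the block 6 were higher and 1 lower. The genes added there, FST (0.21, adjusted p = 0.035) and CHRDL1 (-0.35, 0.0102), were named after their values were seen. Without the block their adjusted p were 0.162 and 0.0851. FSTL3, a follistatin-like binding protein, averaged 28.9 ± 3.89 CPM in ASO-L1 and 20.4 ± 1.47 CPM in SO-L1 (0.50 ± 0.11, adjusted p = 0.00729). NBL1, of the DAN family (0.36 ± 0.087, adjusted p = 0.0113), and TWSG1, which binds BMPs together with chordin (0.38 ± 0.094, adjusted p = 0.0120), rose as well. The other two that rose, named after their values were seen, were the DAN-family genes CER1, with 56.0, 101.1 and 53.9 CPM in ASO-L1 against 11.7, 21.9 and 9.95 CPM in SO-L1, and GREM1, with 8.50, 13.8 and 9.35 CPM in ASO-L1 against 4.19, 7.32 and 4.404 CPM in SO-L1. Their log2 fold changes were 2.29 ± 0.42 (adjusted p = 0.0132) and 0.998 ± 0.25 (0.0162). CER1 also blocks Nodal. The CER1 call ended on dropping pair 3 (0.0843), and that of GREM1 on dropping SO-L1 replicate 1 (0.0658), SO-L1 replicate 3 (0.0644), or pair 1 (0.0717) or pair 3 (0.0681). The calls of NBL1 (0.0563) and TWSG1 (0.0569) ended on dropping SO-L1 replicate 3. On dropping pair 1 those of FSTL3 (0.0558), NBL1 (0.0756) and TWSG1 (0.0818) ended, and NBL1 was lost on dropping pair 3 (0.0784).

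Of 10 receptor and co-receptor genes 1 rose and 2 fell. BMPR1A, a type I receptor, averaged 72.3 ± 6.38 CPM in ASO-L1 and 88.9 ± 4.05 CPM in SO-L1 (-0.30 ± 0.079, adjusted p = 0.0168). The co-receptor genes RGMA (-0.43 ± 0.11, adjusted p = 0.0168) and RGMB (0.49 ± 0.15, adjusted p = 0.0305) went opposite ways. On dropping SO-L1 replicate 3 all 3 calls were lost (adjusted p = 0.0783 for BMPR1A, 0.0776 for RGMA and 0.114 for RGMB), and on dropping SO-L1 replicate 1 those of BMPR1A (0.0633) and RGMB (0.115). On dropping pair 1 they were 0.14, 0.105 and 0.126 for BMPR1A, RGMA and RGMB, and on dropping pair 3 BMPR1A (0.0818) and RGMB (0.0608) were lost. Of the 5 other SMADs only the inhibitory SMAD7 was called (0.30 ± 0.10, adjusted p = 0.0476). Its groups overlapped, and the call was lost without any single library other than SO-L1 replicate 2, with adjusted p from 0.0511 to 0.192, or pair 1 (0.195) or pair 3 (0.238). SMAD5, a BMP effector, was at -0.20 ± 0.077 (adjusted p = 0.0660, and 0.0227 with the block), and SMAD9 at 0.54 ± 0.26 (0.138).

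Among 7 intracellular regulators 2 rose and 1 fell. SMURF2, a ubiquitin ligase that targets SMADs and receptors, had 21.7, 18.4 and 23.2 CPM in ASO-L1 and 35.2, 35.1 and 33.6 CPM in SO-L1 (-0.72 ± 0.096, adjusted p = 0.00173). The groups were well apart. The SMAD corepressor gene SKI averaged 177.1 ± 18.9 CPM in ASO-L1 and 122.4 ± 8.31 CPM in SO-L1 (0.53 ± 0.085, adjusted p = 0.00249), and both calls held in all 15 alternatives. TOB1, an antiproliferative factor that represses BMP signalling in mouse bone cells, was at 0.77 ± 0.23 (adjusted p = 0.0448). It was lost on dropping ASO-L1 replicate 2 (0.0647), SO-L1 replicate 1 (0.0724) or SO-L1 replicate 3 (0.123), on dropping pair 1 (0.0737) or pair 3 (0.136) and with no filter (0.188).

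The E proteins, which ID proteins bind, had 2 of 3 lower. TCF4 averaged 41.6 ± 3.40 CPM in ASO-L1 and 54.7 ± 2.55 CPM in SO-L1 (-0.39 ± 0.082, adjusted p = 0.00613). TCF12 averaged 48.4 ± 4.77 CPM in ASO-L1 and 63.3 ± 2.66 CPM in SO-L1 (-0.39 ± 0.085, adjusted p = 0.00759). TCF3 was at -0.24 ± 0.085 (adjusted p = 0.0531) and passed with the block (0.00301). On dropping pair 1 TCF4 (0.0713) and TCF12 (0.0678) were lost. Of 12 further ligand genes 3 had enough counts to test and none was called. GDF6 was at 1.41 ± 0.51 (adjusted p = 0.0540, and 0.00985 with the block), GDF3 at -0.48 ± 0.23 (0.144, and 2.29e-04 with the block) and BMP6 at 0.64 ± 0.38 (0.204).

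**Figure D4:**
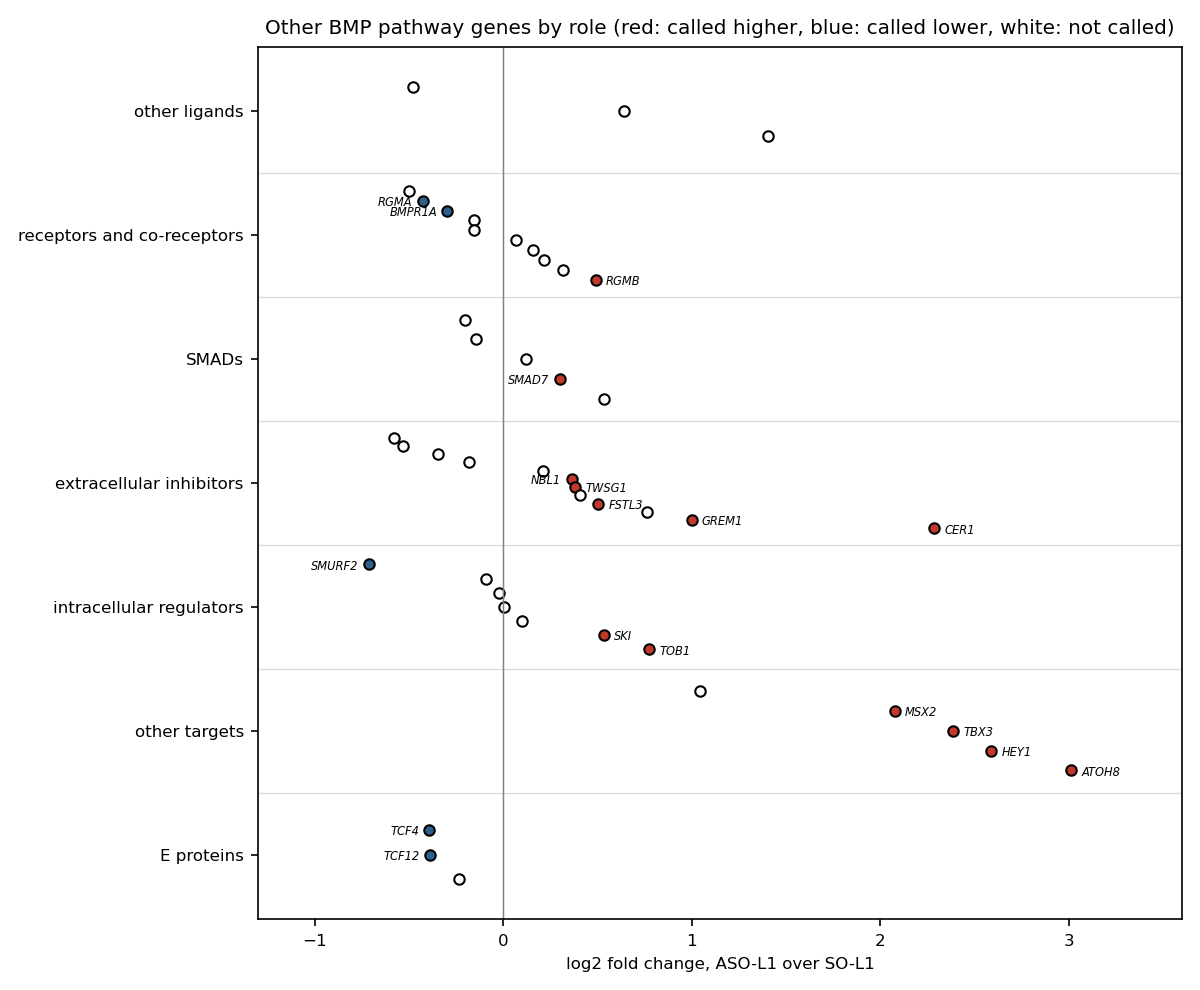
Log2 fold change of ASO-L1 over SO-L1 (x axis) for the 45 tested pathway genes outside the 10, by role (y axis); red genes were called higher, blue ones lower and white ones not called. The target genes reach 3.01 (ATOH8), while receptors lie between -0.50 and 0.49.

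The 5 genes whose pattern over the 6 libraries was most like that of ID1, among 12975 whose mean log2 CPM was 1 or more, were SPINT2, ARL2, LRSAM1, CD81 and GALNT2. Their Euclidean distances in centred log2 CPM ran from 0.0492 to 0.0629, and their log2 fold changes from -0.17 to -0.14. They were picked on these same 6 libraries, so fold changes near that of ID1 follow from the choice. None of the 5 was called without the replicate block, and with it CD81 was (adjusted p = 0.0327).

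Marker genes of other cell types were counted beside the 33.7% of all tested genes called, 18.0% higher and 15.7% lower. Of 5 trophectoderm markers reported here, CDX2 and NR2F2 rose, and GATA2 (adjusted p = 0.301), GATA3 (0.0851) and KRT7 (0.483) did not pass. CDX2 had 1.11, 3.29 and 1.01 CPM in ASO-L1 and 0.512, 0.366 and 0.228 CPM in SO-L1, and NR2F2 had 2.23, 5.57 and 2.14 CPM in ASO-L1 and 0.960, 1.91 and 0.881 CPM in SO-L1. ASO-L1 replicate 2 was the highest for both. CDX2 had 27, 75 and 31 reads in ASO-L1 and 16, 9 and 7 in SO-L1. Of 6 amnion markers 2 rose, TFAP2A (log2 fold change 1.29, adjusted p = 0.0273) and WNT6 (1.01, 0.0181), and 1 fell, IGFBP5 (-0.955, 0.00857). VTCN1 (-0.99, 0.0664), ISL1 (0.72, 0.123) and GABRP (0.505, 0.173) did not pass. VTCN1 was called lower with the block (0.0419). The amnion sums were 10.4 to 14.5 CPM in ASO-L1 and 10.98 to 15.6 CPM in SO-L1. IGFBP5 was a large part of them, at 4.06 CPM on average in ASO-L1 and 7.91 CPM in SO-L1. Primitive endoderm markers had 2 of 5 higher (GATA6 and SOX17), with sums of 8.38 to 14.2 CPM in ASO-L1 and 7.71 to 9.24 CPM in SO-L1. PDGFRA (log2 fold change -0.37, adjusted p = 0.140), GATA4 (-0.15, 0.739) and FOXA2 (0.47, 0.360) did not pass. PDGFRA was lower in every ASO-L1 library than in any SO-L1 library. SOX17 had 15, 29 and 14 reads in ASO-L1 and 3, 7 and 5 in SO-L1. None of the 3 tested mesoderm markers was called, and their list summed to 10.3 to 15.9 CPM in ASO-L1 and 7.73 to 12.04 CPM in SO-L1. Primed markers had 3 of 5 higher (DUSP6, SFRP2 and THY1), with sums of 112.6 to 135.4 CPM in ASO-L1 and 87.0 to 99.1 CPM in SO-L1, which did not overlap. OTX2 (log2 fold change -0.07, adjusted p = 0.488) and ZIC2 (0.44, 0.092) did not pass, and ZIC2 was called higher with the block (0.0193). Of 7 naive markers 2 rose and 3 fell (222.2 to 242.2 CPM in ASO-L1, 238.7 to 247.7 CPM in SO-L1). Fibroblast markers had 2 of 5 higher, COL1A1 and THY1, with sums of 561.8 to 619.9 CPM in ASO-L1 and 500.4 to 560.9 CPM in SO-L1, and THY1 is also in the primed list. COL1A1 and COL1A2 made up most of these sums. COL1A2 (log2 fold change -0.07), LUM (-0.03) and COL3A1 (0.40) were not called. ASO-L1 replicate 2, highest for ID2, ID3, ID4, BMP2 and NOG, had the highest sum of the 6 libraries for the primitive endoderm, mesoderm, primed and fibroblast lists. It also had the lowest sum for the core pluripotency list, at 2993 CPM. No marker in the table was at 0 in all 6 libraries, but VGLL1 had 2 to 4 reads per ASO-L1 library and 4 or 5 per SO-L1 library, and DCN 0 or 1 and 0 or 8. The part of these cell types in the BMP and ID changes was not tested.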

How the data were processed

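The deposited main table gives each gene symbol's raw read count in 6 libraries. Per the submitters' processing notes the tools were TopHat2 2.0.13, Trim Galore 0.4.0, Subread 1.5.0 and featureCounts, and the build hg19. Duplicates were removed by the authors, per the table's title, which lowers high counts most. For annotation and strand use nothing is stated in what was used here. The authors' deposited comparison holds log2 fold changes and average log2 levels, p-values, and t and B scores for each gene. Its model is not stated.

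Low genes were removed with filterByExpr (minimum count 10, minimum total 15) in edgeR 4.0.16. Factors were TMM, and the main test was edgeR's robust quasi-likelihood test without a replicate term, two-sided, Benjamini-Hochberg adjusted over 16873 genes, called under 0.05. An SE is the unshrunken log2 fold change over the square root of F. Differences within replicate numbers used log2(CPM + 0.1). DESeq2 1.42.0 and limma 3.58.1 (voom) were alternatives. With 3 libraries a group, the smallest two-sided p of an exact permutation test is 0.1, and single genes were not tested that way. The common biological coefficient of variation was 10.2%. The fit was run on data simulated with this common coefficient for every gene, which cannot check it for genes or libraries that vary more. Replicates of a group differed beyond sampling noise, and replicate 2 differed most from the others in both groups. In ASO-L1 the chi-square per degree of freedom was 2.05 for replicates 1 and 3. It was 18.9 for ASO-L1 replicates 1 and 2 and 24.5 for 2 and 3. In SO-L1 it was 6.44 for replicates 1 and 3, 11.3 for 1 and 2 and 12.4 for 2 and 3.

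Replicate numbers come from the titles. Deviations from group means correlated by 0.102, 0.377 and 0.211 within numbers 1 to 3, so they were taken as pairs. However, ASO-L1 replicate 1 correlated more with SO-L1 replicate 3 (0.162), and SO-L1 replicate 1 more with ASO-L1 replicate 3 (0.156). The pairing of numbers 1 and 3 is thus uncertain, and it was chosen from these same data. The members and lists were chosen with earlier results of these data known. Named are all 10 members, up to 3 genes with the smallest p per role list, the 5 genes most like ID1, and genes said to be named after their values were seen. The deposited batch-corrected log2 table was not used, as raw counts were at hand. One marker, and the count and sum of the trophectoderm list that holds it, are not reported here.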

Additional observations from a re-analysis of the deposited data

How the results depend on the processing

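The counts of calls and the fold changes of the 10 genes and of most named pathway genes were recomputed under 15 alternatives. MSX1, FST, CHRDL1 and the markers are given from the main fit and the replicate block alone. The ID read shares, the levels per kilobase and the choice of the genes most like ID1 were not recomputed. Called genes among the 10 numbered 6 with RLE size factors, 7 by DESeq2, 6 by limma-voom, 5 with no filter, 6 with a CPM above 1 in 3 libraries (where NOG, GDF6, BMP6 and SMAD9 were not tested) and 8 with the replicate block, and the calls that changed are given in the report. Leaving out single libraries gave 3 to 7, with 3 on dropping SO-L1 replicate 3, and leaving out a replicate number of both groups gave 2, 8 and 3 for numbers 1, 2 and 3. For the 55 pathway genes, single libraries gave 8 to 20 calls and replicate numbers 5, 26 and 9, against 18 with all libraries and 25 with the block. Over all genes, 5684 calls with all libraries became 7719 with the block, 2975 to 5322 without single libraries (3166 and 2975 for SO-L1 replicates 1 and 3), and 1183, 7197 and 2820 without replicate numbers 1, 2 and 3 of both groups. The fits with libraries left out have fewer samples. BAMBI, which ranged from -0.074 to 0.189 over single libraries, changed sign, to -0.020 on dropping ASO-L1 replicate 2, -0.032 on dropping SO-L1 replicate 1, -0.074 on dropping SO-L1 replicate 3 and -0.062 on dropping pair 3, and the cause was not tested. No other gene of the 10 changed sign. The lowest read counts among the 10 were those of NOG, with 7 to 39 per library, and BMP2, with 41 to 111.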
